A study of Arabidopsis thaliana with 12 samples.

Results

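GID1A and GID1B encode gibberellin receptors of Arabidopsis thaliana, and their transcripts were examined in seedling roots in which the ARABIDILLO genes had been overexpressed or mutated. The members were chosen by gene name, with earlier results of these data known. Each had 1 probe set on the Affymetrix ATH1 array, 259302_at for GID1A (AT3G05120) and 251200_at for GID1B (AT3G63010), so that they made up 2 of the 13286 genes with a named probe set and 2 of 22746 probe sets for plant transcripts. Neither probe set carries a suffix that marks probes shared with other transcripts. The study used 12 arrays in 4 groups of 3. Col-0 wild type was the reference for ara1OX, a line with the 35S:Ara1YFP transgene in Col-0. Col-3 wild type was the reference for ara1/2mut, in which ARABIDILLO-1 and ARABIDILLO-2 are mutated in Col-3. The 35S promoter drives expression in most plant cells, and the labels do not give the number of independent transgenic lines or the mutant alleles. All seedlings were 7 days old and had grown at 24 °C in 16 h light and 8 h dark on medium of 0.5 strength with 1% agar, after 2 days at 4 °C. Only roots were taken. Replicates carry numbers in the labels, with nothing to show that they were grown separately, so that the p-values reflect only the variation among these samples, possibly technical.

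Gibberellins are diterpenoid hormones that promote germination, stem elongation and root growth. The hormone binds a soluble GID1 receptor in the nucleus and cytoplasm, and the occupied receptor takes hold of DELLA proteins, which otherwise restrain growth. An SCF ubiquitin ligase with the F-box protein SLY1 then marks the DELLA protein for degradation. Arabidopsis has the receptors GID1A, GID1B and GID1C, which overlap in function. Transcription of receptor genes is known to be under feedback, with more receptor transcript when gibberellin is short. The ARABIDILLO proteins, which carry an F-box and Armadillo repeats, favour the formation of lateral roots, and the series looked for genes that depend on them.

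The values are MAS5 signals on a linear scale, in which the trimmed mean of every array is 100 by the values themselves. Comparisons used log2 signal in limma on the 13648 probe sets left after the lower 40% by mean log2 signal were dropped. A probe set passed the test if its p, adjusted by Benjamini-Hochberg over these probe sets, was under 0.05. GID1A and GID1B both passed this filter on signal, and their mean log2 signals lay at the 67.3 and 80.0 percentiles of the probe sets. Signals of different probe sets depend on the probes and are not compared with each other here. ARABIDILLO-1 and ARABIDILLO-2 had no probe set named for them in the gene table used, so the targeted genes are not analysed here. Several arrays stood apart by different measures. In ara1OX replicate 3 the 18 spiked-in hybridization controls had 5.15 times the signal of the median array, against 0.650 to 2.16 times on the other 11. It was also the array with the lowest value of the 12 for 17.3% of the probe sets, against 4.69% to 13.7% for the other 11. ara1/2mut replicate 1 had the highest value of the 12 for 15.8% of the probe sets, an actin 3′ to 5′ ratio of 25.2 against at most 17.1 elsewhere, and the lowest array weight in limma, 0.418. ara1OX replicate 1 had the lowest mean correlation with its group, 0.913.

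GID1A was the more variable receptor transcript. Its signal was 79.7, 91.4 and 100.1 in Col-0 replicates 1, 2 and 3. In ara1OX it was 58.2, 93.3 and 31.0 in the same order. In Col-3 it was 121, 86.7 and 85.6, and in ara1/2mut it was 120, 72.0 and 93.1. ara1OX replicates 1 and 3 were therefore the lowest of all 12 arrays, whereas ara1OX replicate 2 lay within the range of its wild type. The groups overlapped in every pair. The highest array, Col-3 replicate 1, had 3.92 times the signal of the lowest, ara1OX replicate 3.

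GID1B, the other receptor, varied less. Its signal was 199, 143 and 104 in Col-0, and 139, 143 and 129 in ara1OX. It was 165, 167 and 175 in Col-3, and 137, 139 and 166 in ara1/2mut. The widest group was Col-0, which held both the highest and the lowest of the 12 arrays, a 1.92-fold range. The ara1OX arrays lay inside the Col-0 range, and ara1/2mut replicate 3 lay among the Col-3 arrays while the other 2 mutant arrays lay below them.

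**Figure D1:**
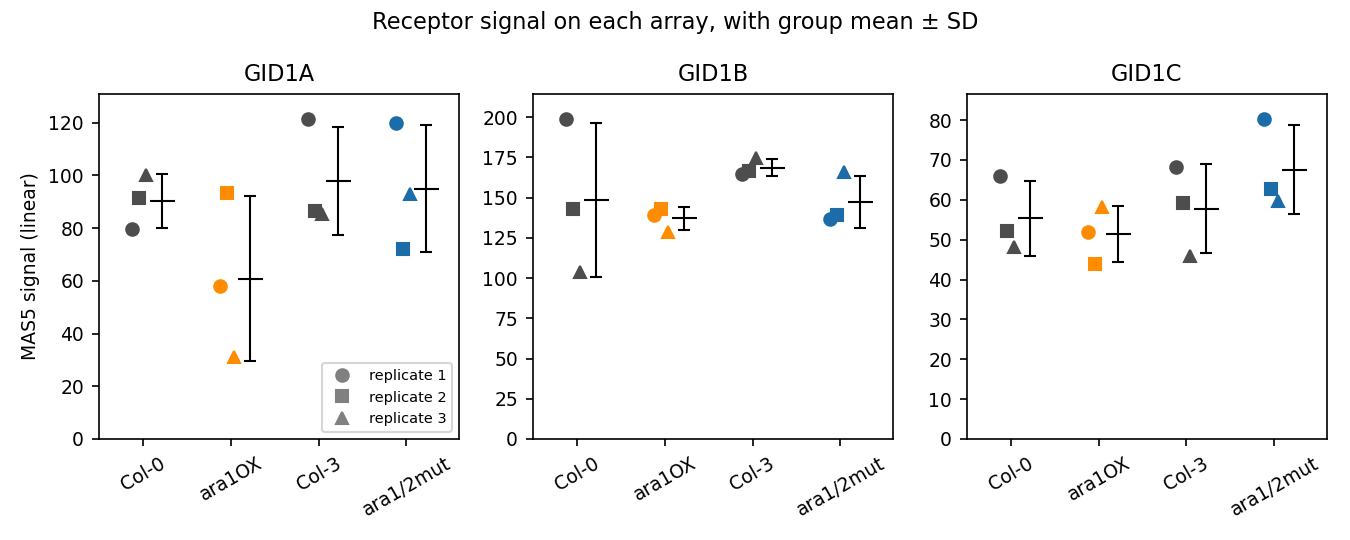
MAS5 signal (linear, y axis) of GID1A, GID1B and GID1C on each of the 12 arrays by group (x axis), with symbols for replicate number and a bar for the group mean ± SD (n = 3). For GID1A the ara1OX arrays ran from 31.0 to 93.3 against 79.7 to 100.1 in Col-0, and for GID1B the Col-0 arrays ran from 104 to 199.

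The order of the GID1A group means was Col-3 at 97.9 ± 20.4 (SD, n = 3), ara1/2mut at 95.0 ± 24.0, Col-0 at 90.4 ± 10.2 and ara1OX at 60.8 ± 31.3. Neighbours in this order were 2.84, 4.62 and 29.6 signal units apart, in each case less than the larger SD of the pair. For GID1B the order was Col-3 at 169 ± 5.26, Col-0 at 149 ± 47.8, ara1/2mut at 147 ± 16.4 and ara1OX at 137 ± 7.34. Its neighbours were 20.1, 1.12 and 10.3 apart, again less than the larger SD of each pair. These gaps cover only neighbours, not groups farther apart in the order. The GID1B arrays of Col-3 and ara1OX, at the ends of the order, did not overlap, as for 16.6% of all probe sets. An exact permutation test of the F statistic over all 369600 assignments of the arrays to 4 groups of 3 gave p = 0.162 for GID1A and p = 0.537 for GID1B. Single arrays decided these values. Without ara1OX replicate 2 the exact p for GID1A was 0.0175, and without ara1OX replicate 3 it was 0.606. Without Col-0 replicate 1 the exact p for GID1B was 0.0441.

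In ara1OX roots, which overexpress the ARABIDILLO-1 fusion protein, neither receptor passed the test against Col-0. GID1A had a log2 difference of -0.71 (SE 0.32), a signal 1.63-fold lower by the mean of the logs. Its adjusted p in limma was 0.744 and its unadjusted p was 0.0405, and 5.42% of the 13648 probe sets had a smaller p. The 95% confidence interval of the difference ran from -1.38 to -0.03. It makes no allowance for the number of probe sets tested or for the choice of genes with earlier results known. GID1B had a log2 difference of -0.07 (SE 0.20, limma adjusted p 0.977), with an interval from -0.49 to 0.36. The interval therefore covers anything from a 0.712-fold to a 1.28-fold level of GID1B. Among all probe sets, 0.022% passed the adjusted threshold in this comparison, 6.43% had an unadjusted limma p under 0.05 and 11.4% had groups that did not overlap. Of the 2 receptors 0 passed, 1 had an unadjusted p under 0.05 and 0 had groups that did not overlap.

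The GID1A difference in ara1OX moved with 1 array. Without ara1OX replicate 3 it was -0.29 (SE 0.26, limma adjusted p 0.950), and without ara1OX replicate 2 it was -1.08 (SE 0.29, limma adjusted p 0.225). With array weights, which were 0.510, 2.17 and 0.501 for the 3 ara1OX replicates, it was -0.33 (SE 0.28, limma adjusted p 0.837). The SD of log2 GID1A signal in ara1OX was 0.80, larger than that of 94.7% of the probe sets in that group, whose median SD was 0.27. The high spike-in signal and the large share of lowest values on ara1OX replicate 3 go with its low GID1A value, as does the low correlation of ara1OX replicate 1 with the second lowest, and their part in the result was not tested. In whole roots, fewer cells of a type that expresses the gene and less transcript per cell cannot be told apart.

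**Figure D2:**
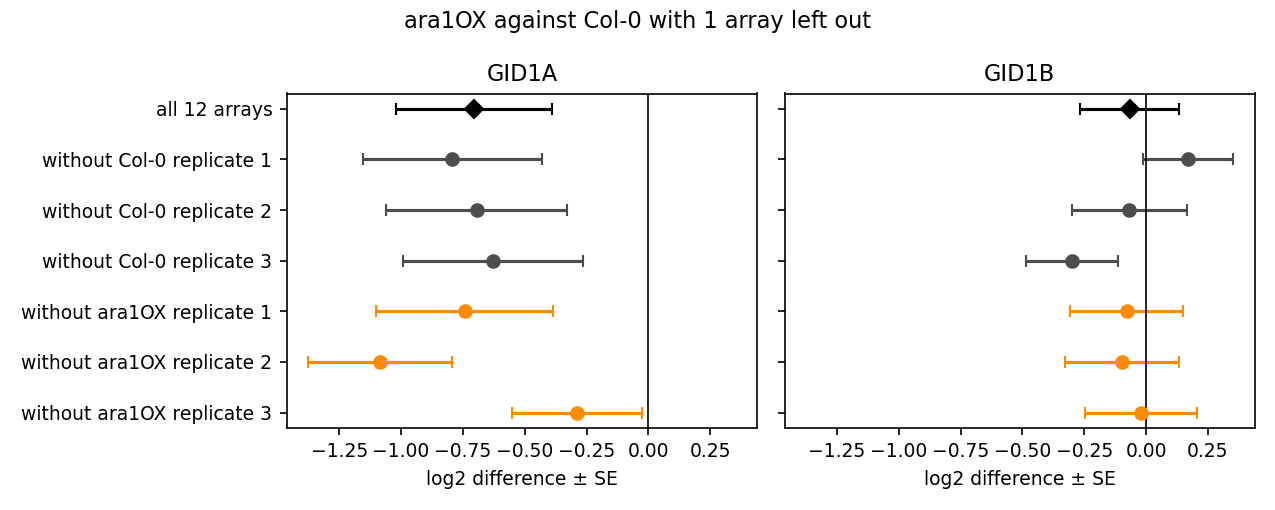
Log2 difference ± SE (x axis) of GID1A and GID1B between ara1OX and Col-0 in limma, with all 12 arrays and with each of the 6 arrays compared left out in turn (y axis). The GID1A difference ran from -1.08 to -0.29, and the GID1B difference from -0.30 to 0.17.

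In ara1/2mut roots, where both ARABIDILLO genes are mutated, neither receptor passed the test against Col-3. GID1A had a log2 difference of -0.05 (SE 0.32, limma adjusted p 0.999), with a 95% confidence interval from -0.72 to 0.62. GID1B had -0.20 (SE 0.20, limma adjusted p 0.999), with an interval from -0.62 to 0.22. The GID1A interval leaves room for levels from 0.605-fold to 1.53-fold in the mutant, and the GID1B interval for levels from 0.650-fold to 1.17-fold. Of all probe sets 0% passed in this comparison, 3.56% had an unadjusted limma p under 0.05 and 9.1% had groups that did not overlap. Of the 2 receptors 0 passed, 0 had an unadjusted p under 0.05 and 0 had groups that did not overlap.

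Between the wild types, both receptors were measured at slightly higher means in Col-3 than in Col-0, and neither passed. GID1A had a log2 difference of 0.10 (SE 0.32, limma adjusted p 0.997), with a 95% confidence interval from -0.57 to 0.77. GID1B had 0.23 (SE 0.20, limma adjusted p 0.978), with an interval from -0.19 to 0.66. The GID1B difference rested on the Col-0 arrays. It was 0.47 (SE 0.18, limma adjusted p 0.886) without Col-0 replicate 1 and -0.00 (SE 0.19, limma adjusted p 1.000) without Col-0 replicate 3. Here 0% of all probe sets passed, 5.08% had an unadjusted limma p under 0.05 and 13.2% had groups that did not overlap, against 0, 0 and 0 of the 2 receptors.

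The change in ara1OX was also set against the change in ara1/2mut, each relative to its own wild type. The difference of the log2 changes was -0.65 (SE 0.45, limma adjusted p 0.917) for GID1A, with a 95% confidence interval from -1.60 to 0.30. For GID1B it was 0.13 (SE 0.28, limma adjusted p 0.966), with an interval from -0.47 to 0.73. Of all probe sets 0.0147% passed and 5.3% had an unadjusted limma p under 0.05, against 0 and 0 of the 2 receptors. A difference between the changes in the 2 lines was thus not detected for either receptor at this number of arrays.

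**Figure D3:**
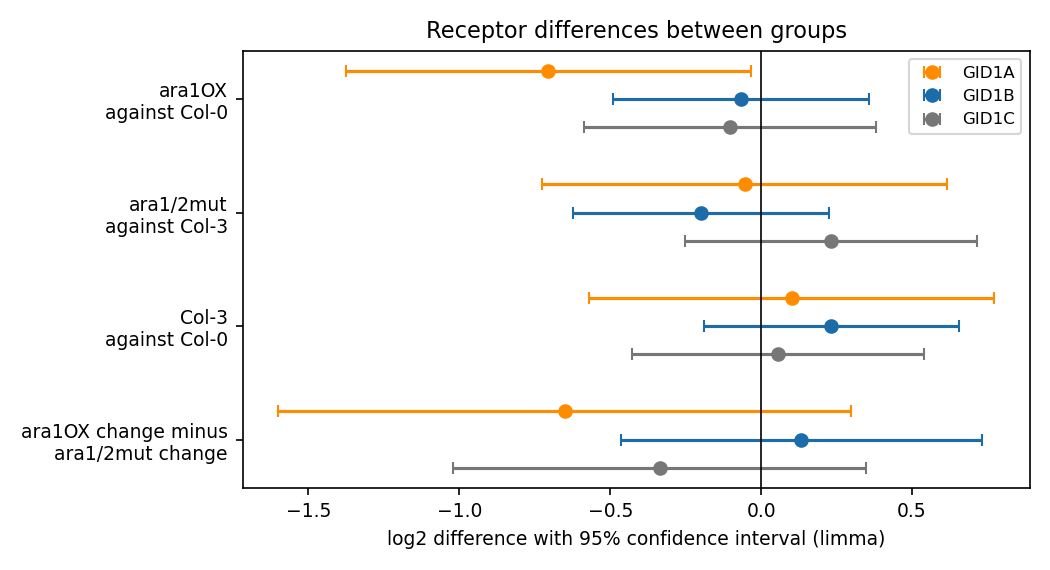
Log2 difference with its 95% confidence interval (x axis, limma, all 12 arrays) for GID1A, GID1B and GID1C in the 3 comparisons of groups and in the difference between the ara1OX and ara1/2mut changes (y axis). GID1A in ara1OX against Col-0 (-0.71) lies farthest from 0 among the 3 comparisons, and the interval of every other difference crosses 0.

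The remaining pairs of groups do not share a genetic background, so line and wild-type differences cannot be told apart in them. ara1OX against ara1/2mut gave a log2 difference of -0.75 (SE 0.32, limma adjusted p 0.448) for GID1A and of -0.10 (SE 0.20, limma adjusted p 0.900) for GID1B, where 0.154% of all probe sets passed. ara1OX against Col-3 gave -0.81 (SE 0.32, limma adjusted p 0.393) for GID1A and -0.30 (SE 0.20, limma adjusted p 0.615) for GID1B, where 0.234% passed. The GID1B arrays of this pair did not overlap, at 129 to 143 in ara1OX against 165 to 175 in Col-3, and 16.6% of all probe sets had groups that did not overlap there. In the other pairs of groups the arrays of GID1A and GID1B overlapped. ara1/2mut against Col-0 gave 0.05 (SE 0.32) for GID1A and 0.03 (SE 0.20) for GID1B, each with a limma adjusted p of 1.000.

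GID1C (AT5G27320, probe set 246782_at), the third receptor gene, gave a reference within the family. Its signal was 66.0, 52.1 and 48.1 in Col-0, and 52.0, 44.0 and 58.2 in ara1OX. It was 68.4, 59.1 and 46.0 in Col-3, and 80.3, 62.7 and 59.8 in ara1/2mut. Each line overlapped its wild type. The ara1OX arrays did not overlap those of ara1/2mut, as for 13% of all probe sets in that pair, with a log2 difference of -0.39 (SE 0.23, limma adjusted p 0.579). The log2 difference of GID1C was -0.10 (SE 0.23, limma adjusted p 0.967) in ara1OX against Col-0 and 0.23 (SE 0.23, limma adjusted p 0.999) in ara1/2mut against Col-3, so 0 of 3 receptor genes passed in either line.

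The receptors were weakly correlated from array to array. Over the 12 arrays the log2 signals of GID1A and GID1B were correlated with Pearson's r at 0.17 and Spearman's rho at -0.03, and r was -0.27 without the 2 arrays whose GID1A signal lay farthest from its median. After the group means were subtracted, r was -0.06. GID1A and GID1C had an r of 0.17, which was 0.32 after the same omission and -0.15 with the group means subtracted. GID1B and GID1C had an r of 0.24, which was -0.15 without the 2 arrays farthest in GID1B and 0.23 with the group means subtracted. These correlations describe 12 arrays that share their scaling. The log2 ratio of GID1A to GID1B within each array was highest in Col-0 replicate 3, 0.81 above its mean over the arrays, and lowest in ara1OX replicate 3, 1.20 below it (a deviation of -1.20). An exact permutation test of this ratio over the 4 groups gave p = 0.474. A different response of the 2 receptors to genotype was therefore not detected.

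Among 7355 other named probe sets that passed the filter, the 5 with the most similar pattern to GID1A over the 12 arrays were AT1G68710 (Pearson r 0.95), AT5G36210 (0.94), AT3G12210 (0.93), AT4G11175 (0.93) and AtRZ-1b (0.90). Without ara1OX replicate 3 their r with GID1A lay between 0.64 for AtRZ-1b and 0.85 for AT1G68710. The most opposite patterns were those of PIA1, named as a protein phosphatase 2C induced by AvrRpm1 (r -0.92), and AT5G48830 (r -0.91). The genes most like GID1B were AT5G51110 and AT1G71080 (r 0.85 each), AT2G23960 (0.85), AT4G35110 (0.83) and AT1G23830 (0.82). Without Col-0 replicate 3, the lowest array for GID1B, the r of these 5 genes lay between 0.71 for AT4G35110 and 0.74 for AT1G23830. The most opposite to GID1B were AT3G21770 (-0.84) and AT5G46550 (-0.82). An r above 0.8 over all 12 arrays was held by 70 probe sets with GID1A and by 8 with GID1B. These values are given as a description.

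The rest of the gibberellin pathway was taken from lists of 53 genes for the DELLA repressors, receptor and DELLA turnover, DELLA modification, hormone synthesis, inactivation and transport, DELLA partners and GASA response genes. Of these, 8 had a named probe set that passed the filter. No probe set that could be used was named for the 5 DELLA genes or for the 23 genes of gibberellin synthesis and inactivation on the lists, which are not analysed here. In ara1OX against Col-0 0 of the 8 passed, 4 were higher and 4 lower, with a median log2 difference of 0.00 against -0.03 over all probe sets, and 0 had an unadjusted limma p under 0.05. In ara1/2mut against Col-3 0 passed, 5 were higher and 3 lower, with a median of 0.16 against 0.01 over all, and 0 had an unadjusted limma p under 0.05. In Col-3 against Col-0 0 passed, 4 were higher and 4 lower, with a median of -0.03 against -0.00 over all, and 0 had an unadjusted limma p under 0.05. Over all probe sets 0.022%, 0% and 0% passed in these comparisons, in the same order. The shares with an unadjusted limma p under 0.05 were 6.43%, 3.56% and 5.08%, so that 0 of 8 does not set the pathway apart. Without ara1OX replicate 3, 0 of the 8 passed in these comparisons.

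Several measured genes act on DELLA proteins. SLY1, the F-box protein that recruits DELLA proteins to the ubiquitin ligase, had a log2 difference of 0.08 in ara1OX and of -0.28 in ara1/2mut, each with an SE of 0.17. Its close homologue SNE, listed as SLY2, had 0.04 (SE 0.29) and 0.18 (SE 0.29). SPY, which modifies DELLA proteins with O-fucose, differed by 0.27 (SE 0.19) in ara1OX, and by 0.16 in the mutant with the same SE. Its ara1OX arrays, at 137, 89.9 and 96.7, all lay above the Col-0 arrays, at 89.4, 87.1 and 86.9, as they did for 4.87% of all probe sets. This was not particular to ara1OX, since the Col-3 arrays (93.0 to 123) and the ara1/2mut arrays (105 to 130) also lay above those of Col-0. Col-3 and Col-0 did not overlap for 13.2% of all probe sets. SEC, which adds O-GlcNAc to DELLA proteins, had -0.33 in ara1OX and -0.10 in ara1/2mut, each with an SE of 0.19. The ara1OX differences of SEC and SPY moved with single arrays. That of SEC was -0.10 without ara1OX replicate 3, and that of SPY was 0.087 without ara1OX replicate 1. With all arrays the limma adjusted p of SLY1, SNE, SPY and SEC ran from 0.828 to 0.999 in both comparisons.

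The other pathway genes that passed the filter showed wider errors. SWEET13, a sugar transporter that also carries gibberellin, had ara1OX signals of 31.0, 42.8 and 7.78, while those of Col-0 were 30.5, 21.5 and 47.4. Its log2 difference of -0.53 (SE 0.52) rested on ara1OX replicate 3, without which it was 0.21. AT1G68570, from the transport list, had 0.14 (SE 0.38) in ara1OX. JKD, a zinc finger protein of the root ground tissue that can bind DELLA proteins, had -0.18 in ara1OX and 0.47 in ara1/2mut, each with an SE of 0.36, and without ara1OX replicate 3 the first was 0.14. AT5G59845, from the GASA list, had -0.04 (SE 0.37) and 0.21 (SE 0.37), and the first was 0.39 without that array. None passed in either line, with limma adjusted p-values from 0.892 to 0.999.

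**Figure D4:**
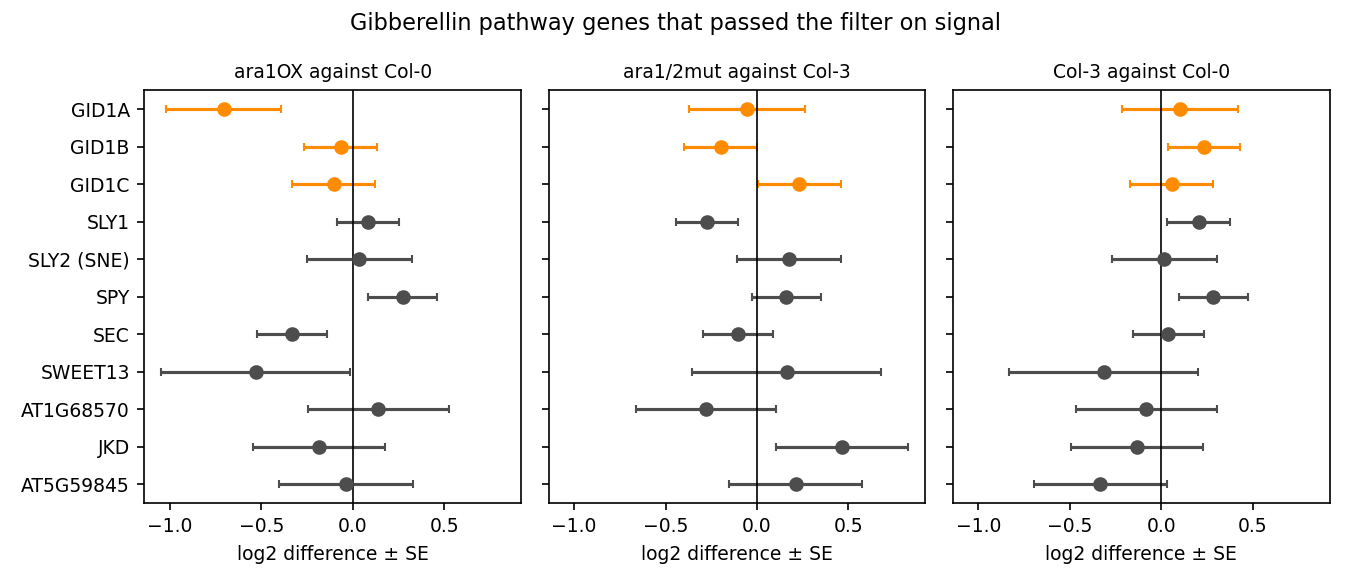
Log2 difference ± SE (x axis, limma) of the 3 receptor genes and the 8 other gibberellin pathway genes that passed the filter (y axis), in each line against its wild type and in Col-3 against Col-0. In ara1OX, GID1A at -0.71 and SWEET13 at -0.53 lay farthest below 0, and 0 of the 11 genes passed. Without ara1OX replicate 3 GID1A was at -0.29 and SWEET13 at 0.21.

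GID1 receptors belong to the family of carboxylesterase-like proteins, and 17 further loci of this family were listed. Of these, 12 had a named probe set, and the 8 that passed the filter on signal were tested. Of the 8, 0 passed in ara1OX, in ara1/2mut or between the wild types, with 0 at an unadjusted limma p under 0.05 in each. Over all probe sets 0.022%, 0% and 0% passed in the same order, and 6.43%, 3.56% and 5.08% had an unadjusted limma p under 0.05. In ara1OX 6 of the 8 were lower, with a median log2 difference of -0.12, while 55.4% of all probe sets were lower. The signal of AT1G47480 was 187, 261 and 267 in ara1OX and 284, 299 and 290 in Col-0, and so lay below its wild type in every ara1OX array, as for 6.57% of all probe sets. Its log2 difference was -0.31 (SE 0.16) in ara1OX and 0.12 in ara1/2mut. AT5G06570 had -0.42 (SE 0.27) in ara1OX, which was -0.16 without ara1OX replicate 3, and -0.36 in ara1/2mut. Between the wild types it had 0.57 (SE 0.27, limma adjusted p 0.956) and AT1G47480 had -0.26 (SE 0.16, limma adjusted p 0.968). For both, the Col-3 and Col-0 arrays did not overlap, as for 13.2% of all probe sets. AT3G27320 had -0.40 (SE 0.24) in ara1OX and 0.06 in ara1/2mut. AT1G19190 had 0.64 (SE 0.61) in ara1OX, which was -0.22 without Col-0 replicate 3, and 0.12 in ara1/2mut. AT1G68620 had -0.03 (SE 0.32) and 0.09 in the same lines. CXE16, CXE18 and CXE20 had -0.06 (SE 0.24), -0.18 (SE 0.18) and 0.14 (SE 0.44) in ara1OX, and -0.17, -0.14 and 0.10 with the same errors in ara1/2mut. The limma adjusted p of the 8 genes ran from 0.808 to 0.999 in these lines.

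The labelled tissue was checked with markers. Of 11 shoot markers 2 had a named probe set, the photosynthesis genes RCA and LHCB4.1. Their summed signal was 152 to 221 in Col-0, 170 to 230 in ara1OX, 161 to 239 in Col-3 and 186 to 339 in ara1/2mut, and neither was at 0. In ara1OX against Col-0 RCA differed by -0.02 and LHCB4.1 by 0.01 on the log2 scale. With single arrays left out, RCA ranged from -0.25 to 0.22 and LHCB4.1 from -0.21 to 0.14. Of 12 root markers 2 had a named probe set, EXPA7 and EXPA18 of the expansins in root hairs, whose summed signal was 431 to 522 in Col-0, 529 to 635 in ara1OX, 346 to 440 in Col-3 and 401 to 526 in ara1/2mut. The root marker sum was thus higher in all 3 ara1OX arrays than in the Col-0 arrays. EXPA7 alone separated these groups, as 4.87% of all probe sets did in this direction, with a log2 difference of 0.37 (SE 0.17, limma adjusted p 0.774). The EXPA18 arrays overlapped, with a log2 difference of 0.25 (SE 0.17, limma adjusted p 0.854). The part of shoot tissue or of root hair content in the GID1A values was not tested.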

How the data were processed

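Total RNA from roots of 12 samples was hybridized to 1 Affymetrix ATH1 array each. The deposited intensities are linear signals from MAS5, as the submitters' processing notes state. Its version and scaling target are not given here. Detection calls were not used. Groups and replicate numbers came from the titles. The log2 signals were analysed without further normalization. Of 22810 probe sets, 64 controls were left out, and the filter (mean log2 signal of at least 4.49, a signal of 22.4) kept 13648. A single model with 4 group means was fitted to all 12 arrays by limma 3.58.1 (R 4.3.3, variance trend, 8 residual and 7.49 prior degrees of freedom, two-sided tests). The permutation tests of single genes enumerated all assignments, and 6.49e-05 is the smallest p they can give. Precision is limited by the number of arrays. The fit was checked on simulated data with equal spread in all groups and no array effects. Those settings differ from these arrays, so the check does not cover unequal spread or odd arrays.

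Gene names came from the platform's table, which gave 1 gene for 13513 probe sets and several for 503, updated with the TAIR10.1 gene table. The other 8730 probe sets are unnamed here. Of 98 listed genes, named probe sets existed for 29, of which 23 were kept by the filter. Named genes were the receptors, every listed gene with a named probe set, and for each receptor the 5 genes with the highest and the 2 with the lowest Pearson r. The 6 listed genes under the filter (SWEET14, AT1G22690, AT1G49650, AT2G03550, AT2G45600 and AT2G45610) were not tested. The members and lists were chosen with earlier results of these data known. The settings tried besides were array weights, quantile normalization or median centring, a pseudocount of 16, the unfiltered table, no variance trend, the compared groups alone, the replicate number as a block and leaving out each array.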

Additional observations from a re-analysis of the deposited data

How the results depend on the processing

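The 8 log2 differences of GID1A and GID1B were recomputed under up to 20 settings each, 158 in all. None of the 158 gave a limma adjusted p under 0.05 (range 0.225 to 1.000), 151 kept the direction and 7 reversed it. One reversal came from array weights, GID1B in ara1OX against Col-0 at 0.027, and 6 from leaving out 1 array. When single arrays were left out, GID1A ranged from -1.08 to -0.29 in ara1OX, from -0.24 to 0.13 in ara1/2mut, from -0.064 to 0.19 between the wild types and from -1.03 to -0.23 for the difference of the changes. GID1B ranged from -0.30 to 0.17, from -0.29 to -0.15, from -0.00089 to 0.47 and from -0.10 to 0.37 in the same order. With array weights the GID1A difference of the changes was -0.11. The exact p over the 4 groups ran from 0.0175 to 0.606 for GID1A, from 0.0441 to 0.725 for GID1B and from 0.191 to 0.900 for their ratio when 1 array was left out. The causes were not tested beyond the arrays named.

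The number of probe sets called in ara1OX against Col-0 was 3, and became 15 with array weights, 17 with the replicate block, 5 with the compared groups alone and 3 to 14 without 1 array. In ara1/2mut against Col-3 it was 0, and became 4 with array weights and 0 to 1 without 1 array. In Col-3 against Col-0 it was 0, and 0 to 2 without 1 array. For the difference of the changes it was 2, and became 1 with median centring, 0 without the variance trend and 0 to 2 without 1 array. GID1A and GID1B were among none of these calls. Arrays of ara1OX and Col-0 with the same replicate number had correlations of 0.14, 0.03 and 0.12 between their deviations from the group means. For ara1/2mut and Col-3 these were 0.18, 0.096 and 0.26, and for Col-3 and Col-0 they were -0.0036, -0.082 and 0.019. The values of each line with its wild type were thus all positive but low. Whether arrays of the same number were paired was not tested. With the replicate block GID1A in ara1OX against Col-0 stayed at -0.71 (SE 0.30, limma adjusted p 0.562). In the fit to all 12 arrays, with 3 per group and no block, the 95% intervals of GID1A were bounded. In the 3 comparisons of groups they did not reach below a level of 0.385-fold or above 1.71-fold. These bounds hold for that fit alone, since without ara1OX replicate 2 the difference from Col-0 was -1.08.

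For the other 21 listed genes in ara1OX against Col-0, each of the 6 arrays compared was left out in turn, an alternative chosen after seeing the data. None of the 126 values had a limma adjusted p under 0.05 (range 0.576 to 0.998), and 28 reversed the direction, in 13 genes. The ranges of these genes were -0.20 to 0.029 for GID1C, -0.046 to 0.15 for SLY1, -0.11 to 0.31 for SNE, -0.10 to 0.43 for AT1G68570, -1.02 to 0.21 for SWEET13, -0.38 to 0.14 for JKD, -0.40 to 0.39 for AT5G59845, -0.22 to 1.16 for AT1G19190, -0.39 to 0.17 for AT1G68620, -0.32 to 0.095 for CXE16, -0.21 to 0.68 for CXE20, -0.25 to 0.22 for RCA and -0.21 to 0.14 for LHCB4.1.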
